A study of Mus musculus with 36 samples.

Results

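Interleukin 6 (Il6), leukemia inhibitory factor (Lif), oncostatin M (Osm), interleukin 10 (Il10), interleukin 15 (Il15), its receptor alpha chain (Il15ra) and the colony-stimulating factors Csf1, Csf2 and Csf3 were examined in bone marrow-derived macrophages (BMDMs). These 9 genes were found by name among the 54532 genes of the count table, each as 1 row. All 36 libraries were used. BMDMs were grown with MCSF, the protein product of Csf1, from the bone marrow of female C57BL/6 mice aged 13 to 17 weeks. KO macrophages (n = 6 replicates) came from LysM-Cre;Bmal1 flox/flox mice, in which the LysM promoter drives Cre recombinase in myeloid cells and removes a floxed part of the clock gene Bmal1. WT macrophages (n = 3 replicates) came from Bmal1 flox/flox littermates without Cre, so the floxed alleles were shared by all groups. For 6 h the cells received DMSO vehicle, 100 µM CCM, 100 nM lipopolysaccharide (LPS) with DMSO, or LPS with CCM. CCM (Core Circadian Modulator) is a small molecule that binds the PASB domain of BMAL1, and LPS is a bacterial cell wall component that activates macrophages through Toll-like receptor signalling.

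The members are secreted signals, except for Il15ra. IL-6, LIF and oncostatin M share the receptor chain gp130 (Il6st) and signal through JAK kinases and STAT3, and IL-10, which restrains inflammatory macrophages, also uses STAT3. IL-15 is carried to NK and T cells on its receptor alpha chain by the cell that makes it. Csf1, Csf2 and Csf3 encode M-CSF, GM-CSF and G-CSF, which drive the growth of macrophages, of granulocytes and macrophages, and of neutrophils.

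The total count on genes ran from 13469262 to 28288923 over the libraries (median 19951421). Levels are CPM, the counts of a gene relative to the library total, scaled by edgeR's TMM factors, with the SD between replicates. A gene is called where edgeR's quasi-likelihood test gave it an adjusted p (Benjamini-Hochberg) of no more than 0.05, and fold changes are given on the log2 scale with their standard error (SE). Arntl, the gene symbol of Bmal1, had 7.28 to 12.9 CPM in WT libraries and 2.13 to 10.7 in KO libraries. In the 4 libraries labelled KO replicate 2 it had 7.74 to 10.7 CPM, within the WT range. Among the other KO replicates the highest library had 8.19 CPM, also within that range. Each KO result below includes replicate 2 unless said otherwise. Macrophage markers were high in all libraries, 13330 to 22310 CPM summed over 11 genes. Markers of fibroblast or stromal cells summed to 301 to 1680 CPM, with 6 of 7 genes at a mean of at least 1 CPM and Lum at 0 in 5 libraries. Neutrophil markers (9 of 10 at that level, Ly6g at 0 in 3 libraries) summed to 1172 to 1246 CPM in KO replicate 6 and to 460 to 1208 in the other libraries. In bulk RNA, fewer cells of a type and less RNA per cell cannot be told apart.

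Il6 (ENSMUSG00000025746) lies on chromosome 5 from 30013114 to 30019981, and Il10 (ENSMUSG00000016529) on chromosome 1 from 131019845 to 131024974, on the mouse build mm10. Lif (ENSMUSG00000034394, 4257557 to 4272514) and Osm (ENSMUSG00000058755, 4236420 to 4241026) are neighbours on the plus strand of chromosome 11, with 16530 bases between them. Csf2 (ENSMUSG00000018916, 54247271 to 54249667) and Csf3 (ENSMUSG00000038067, 98701263 to 98703629) lie on the same chromosome. Il15 (ENSMUSG00000031712) is on chromosome 8 from 82331632 to 82403222, Il15ra (ENSMUSG00000023206) on chromosome 2 from 11705290 to 11734317, and Csf1 (ENSMUSG00000014599) on chromosome 3 from 107741048 to 107760469. These intervals are identical in GENCODE release M21. Csf2 overlaps the predicted gene Gm12223 on the opposite strand, which makes part of its count uncertain, and the other members overlap no annotated gene.

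Promoters of 3 members are shown because their levels contrast in the results below. Il6 had the largest estimated response to LPS in WT macrophages, and Lif and Csf1 deviated together between libraries. Each sequence holds the 250 bases before the transcription start, from RefSeq on GRCm38.p6, read 5′ to 3′ on the strand of the gene. The Lif window ends at 4257567, past the gene start of 4257557 given above, so its distances are counted from the RefSeq start. Capitals mark matches on either strand to the AP-1 motif TGANTCA, the C/EBP motif TTNNGNAA and the NF-κB consensus. The E-box CACGTG, the site of BMAL1-CLOCK, and the interferon-stimulated response element were also searched and had no match in these 3 windows.

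Il6, GRCm38.p6, chr5:30012864-30013113, plus strand: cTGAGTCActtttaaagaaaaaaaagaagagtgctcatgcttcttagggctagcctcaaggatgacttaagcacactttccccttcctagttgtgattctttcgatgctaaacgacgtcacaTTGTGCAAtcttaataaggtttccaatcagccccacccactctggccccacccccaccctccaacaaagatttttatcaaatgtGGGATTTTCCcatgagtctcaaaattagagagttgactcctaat

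Lif, GRCm38.p6, chr11:4257318-4257567, plus strand: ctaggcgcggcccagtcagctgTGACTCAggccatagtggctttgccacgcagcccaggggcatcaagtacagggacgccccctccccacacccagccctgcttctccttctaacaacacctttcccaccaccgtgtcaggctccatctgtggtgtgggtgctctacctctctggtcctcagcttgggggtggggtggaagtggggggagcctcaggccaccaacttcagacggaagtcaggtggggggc

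Csf1, GRCm38.p6, chr3:107760470-107760719, minus strand: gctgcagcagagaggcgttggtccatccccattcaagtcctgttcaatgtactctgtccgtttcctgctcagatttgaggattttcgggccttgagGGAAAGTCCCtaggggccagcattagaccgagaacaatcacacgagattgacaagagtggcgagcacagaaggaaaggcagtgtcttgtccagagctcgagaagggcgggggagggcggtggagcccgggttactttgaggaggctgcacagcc

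The Il6 window held an NF-κB match 44 to 35 bases before the start, a C/EBP match at 128 to 121 and an AP-1 match at 249 to 243. An AP-1 match lay 228 to 222 bases before the start of Lif, and an NF-κB match 154 to 145 before that of Csf1. Of 32851 promoter windows of this length, 3.90% held the NF-κB consensus, 6.75% the AP-1 motif, 36.8% the C/EBP motif, 6.02% the E-box and 2.98% the interferon-stimulated response element. Matches of letters are not evidence of binding.

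Which members responded to LPS was asked first. In WT macrophages 7 of the 8 members tested rose and Osm did not pass the test, where 63.0% of the 14501 genes tested were called and 30.6% were called higher. Their median log2 fold change was 3.27, against -0.05 over all genes tested. In KO macrophages the same 7 members rose, where 47.1% of genes were called and 22.4% were called higher, and the median was again 3.27. With libraries scaled by total counts alone, the median log2 fold change of all genes moved from -0.05 to -0.47 in WT and to -0.44 in KO, and the calls from 4441 higher and 4698 lower to 2551 and 8060 in WT, and from 3060 and 3373 to 1825 and 5708 in KO. Under that scaling Il6, Lif, Il10, Il15, Il15ra and Csf3 still rose in both genotypes, while Csf1 and Osm changed as described below. Csf2 had too few counts for this test and is given below as counts. The share of all genes with every LPS library above every vehicle library was not counted. Where that order is given below for a member, it is a description only.

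**Figure D1:**
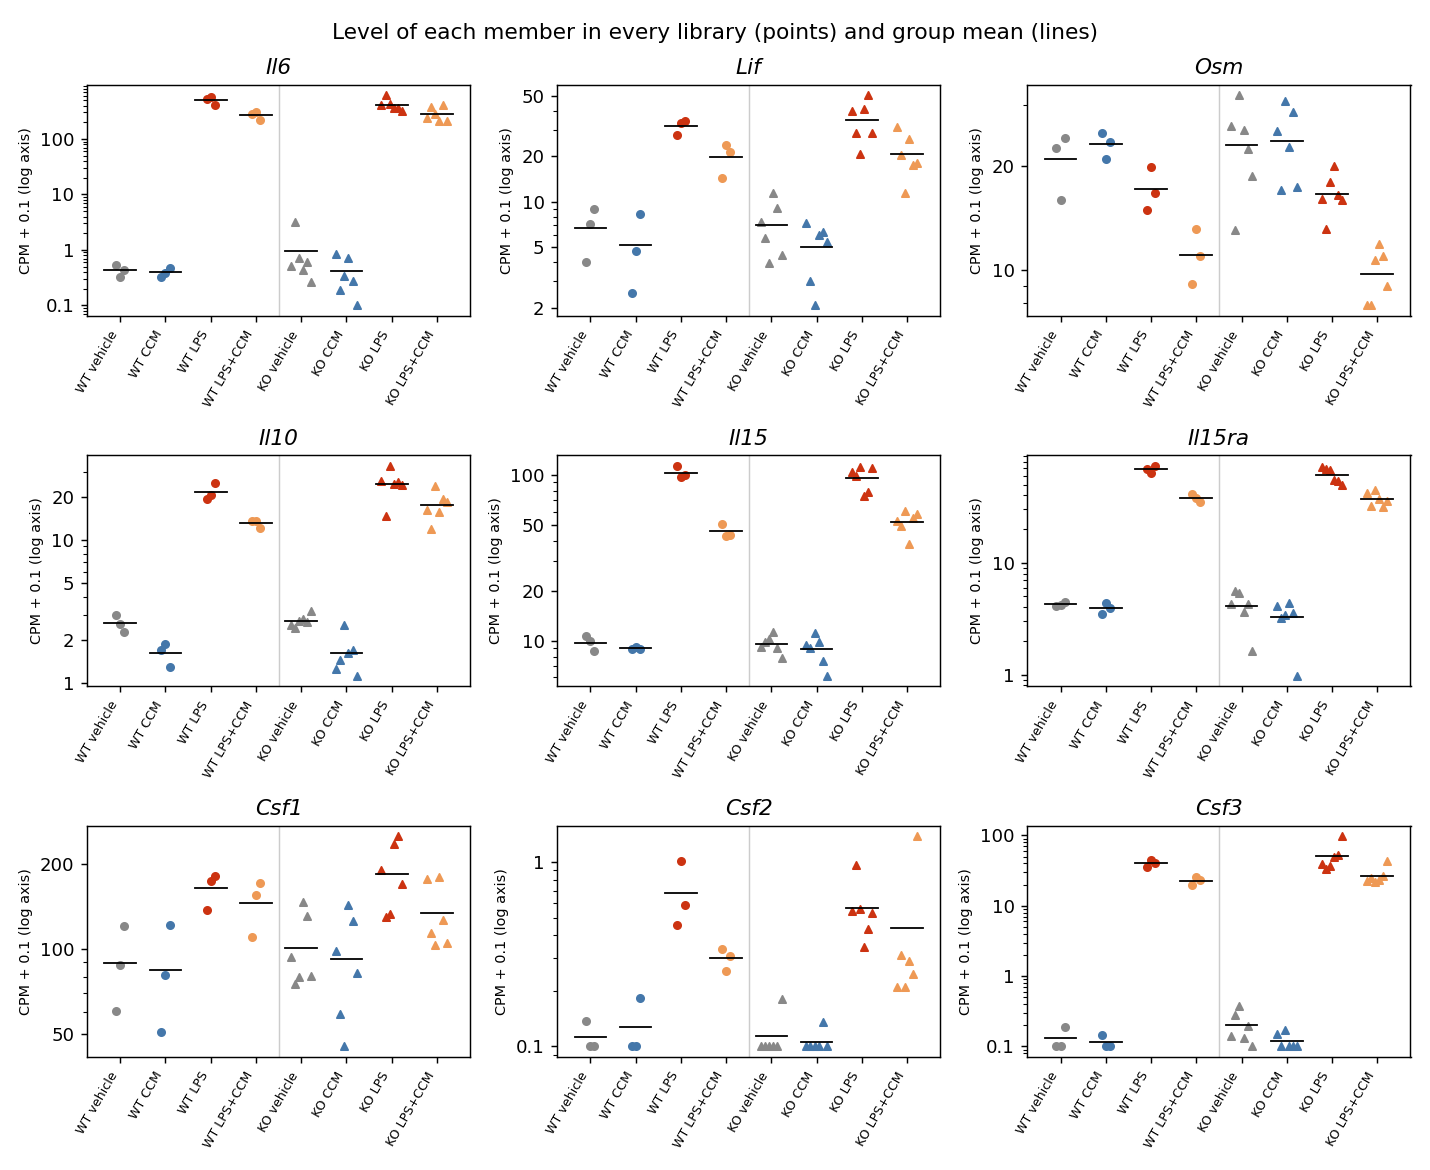
Level of each member in every library (points; circles WT, triangles KO), with the group mean as a line, as CPM plus 0.1 on a log axis. Il6, Il10, Il15, Il15ra, Lif and Csf3 separate LPS-treated from untreated libraries in both genotypes, while Osm libraries with LPS overlap those with vehicle.

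The inflammatory cytokine gene Il6 had 0.441, 0.221 and 0.329 CPM in WT vehicle libraries and 529, 568 and 408 CPM with LPS. In KO, the vehicle libraries ran from 0.161 to 3.07 CPM (median 0.465) and the LPS libraries from 321 to 609 (median 387). No LPS library overlapped a vehicle library in either genotype. The log2 fold change was 10.53 (SE 0.21, edgeR adjusted p = 7.1e-11) in WT and 8.88 (SE 0.62, adjusted p = 7.4e-08) in KO. KO replicate 2 was the highest KO library both with vehicle, 3.07 CPM against at most 0.607 in the others, and with LPS.

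Csf3, the neutrophil growth factor gene, had 0, 0 and 3 counts in WT vehicle libraries and 609, 1039 and 1019 counts with LPS. The ratio of the rates was 1139, with a 95% interval of 390 to 5529 that covers counting error only. In KO there were 0 to 6 counts per vehicle library and 559 to 1134 per LPS library, a ratio of 465 (277 to 851). Csf2, the GM-CSF gene, stayed near the limit of detection. It had 1, 0 and 0 counts in WT vehicle libraries and 6, 21 and 12 with LPS, and 0 to 1 count in KO vehicle and 4 to 15 in KO LPS libraries. The ratio was 50.0 (8.46 to 2024) in WT and 62.2 (10.6 to 2512) in KO, and LPS libraries exceeded vehicle libraries without overlap in both. By a two-sided exact permutation test of CPM this gave p = 0.1 in WT, the smallest that 3 against 3 libraries allow, and p = 0.00217 in KO, the smallest for 6 against 6.

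Il15ra rose the most of the members that were well above 0 with vehicle. In WT it had 4.01, 4.06 and 4.36 CPM with vehicle and 69.0, 63.8 and 73.4 with LPS, a log2 fold change of 4.05 (SE 0.09, edgeR adjusted p = 1.3e-10). Its ligand Il15 went from 10.6, 9.80 and 8.51 CPM to 112.8, 96.7 and 99.3, a log2 fold change of 3.43 (SE 0.10, adjusted p = 8.1e-10). In KO the log2 fold changes were 3.90 (SE 0.25) for Il15ra and 3.33 (SE 0.14) for Il15. Ligand and receptor chain were both higher with LPS in 3 of 3 WT and 6 of 6 KO pairs of the same number. In WT, same-numbered libraries hardly deviated together here (correlations of 0.0457 to 0.172). No share over all genes was counted for pairs of the same number, so the pair counts here and below are descriptions. Il15ra was lowest in KO replicate 6 with vehicle (1.53 CPM against at least 3.52 in the others).

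The anti-inflammatory cytokine gene Il10 had 2.90, 2.47 and 2.18 CPM in WT vehicle libraries and 19.3, 20.4 and 25.0 with LPS (log2 fold change 3.11, SE 0.15, edgeR adjusted p = 5.3e-08). In KO it rose by a log2 fold change of 3.22 (SE 0.18). Lif, a gp130 cytokine gene, had 3.90, 7.02 and 8.84 CPM with vehicle and 27.5, 33.2 and 34.3 with LPS (log2 fold change 2.26, SE 0.23, adjusted p = 1.5e-05). Its log2 fold change in KO was 2.31 (SE 0.29). All LPS libraries lay above all vehicle libraries for both genes in both genotypes.

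Csf1, whose product the medium already contained, had 60.5, 87.7 and 121.2 CPM in WT vehicle libraries and 137.8, 174.3 and 182.5 with LPS. It had the smallest rise of the members called, a log2 fold change of 0.88 (SE 0.21, edgeR adjusted p = 0.0047) in WT and 0.86 (SE 0.22, adjusted p = 0.0055) in KO. In KO the vehicle libraries (75.6 to 147.4 CPM) overlapped the LPS libraries (129.9 to 251.1), although Csf1 was higher with LPS in 6 of 6 same-numbered pairs. With total-count scaling Csf1 no longer passed the test (0.46, adjusted p = 0.0742 in WT and 0.47, adjusted p = 0.137 in KO). Over 12 alternatives its adjusted p ran from 1.05e-25 to 0.0742 in WT and from 2.91e-08 to 0.137 in KO.

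Osm, the neighbour of Lif, stood apart from the other members. It had 22.4, 15.8 and 24.0 CPM in WT vehicle libraries and 14.8, 19.7 and 16.5 with LPS, groups that overlap, and a log2 fold change of -0.28 (SE 0.16, edgeR adjusted p = 0.153). In KO it had 12.9 to 31.8 CPM with vehicle (median 23.7) and 13.1 to 19.9 with LPS (median 16.1), a log2 fold change of -0.48 (SE 0.19, adjusted p = 0.0537). Same-numbered KO libraries deviated together here, and a fit blocked by replicate number, which called 71.6% of genes, called Osm lower (adjusted p = 0.00149). Osm was also called lower without WT vehicle replicate 2 (adjusted p = 0.0179 in WT) and without KO replicate 2 or 6 (0.0148 and 0.0266 in KO). Total-count scaling gave a call too, in WT (-0.69, adjusted p = 0.00258) and in KO (-0.87, adjusted p = 0.00399). Over 12 alternatives the adjusted p of Osm ran from 0.00258 to 0.423 in WT and from 0.00149 to 0.166 in KO, and its log2 fold change was below 0 in each.

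**Figure D2:**
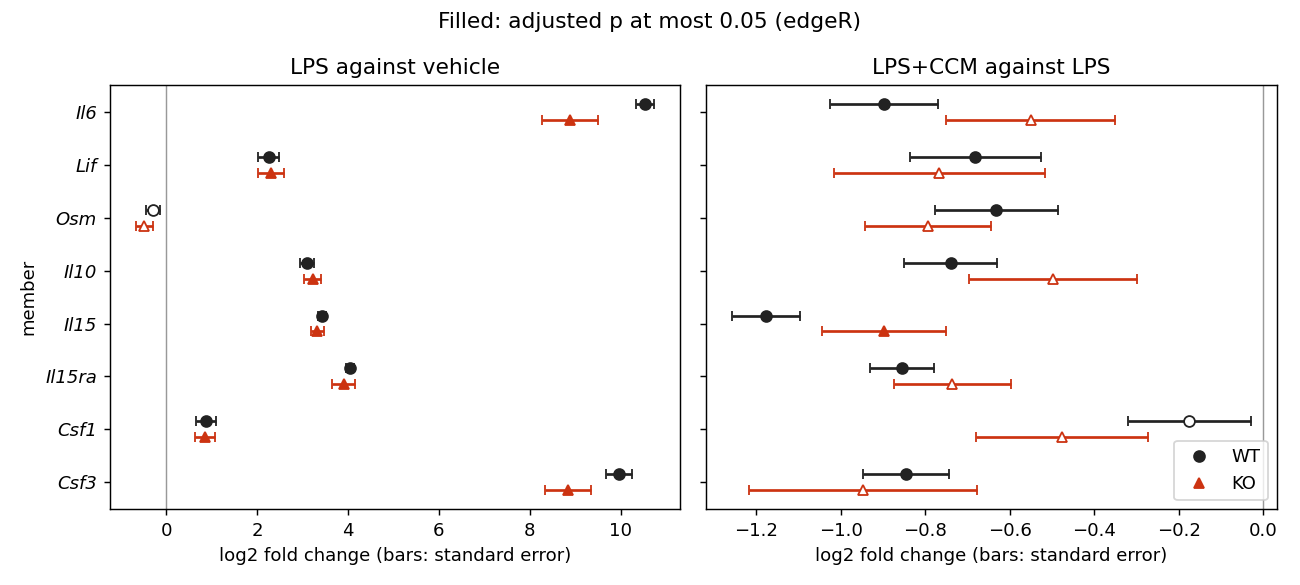
Log2 fold changes of 8 members for LPS against vehicle (left) and LPS+CCM against LPS (right), in WT (circles) and KO (triangles), with standard errors. Filled symbols passed an adjusted p of 0.05 in edgeR. Each estimate on the right is below 0, and 7 WT symbols and 1 KO symbol (Il15) are filled. The LPS estimate of Csf3 in WT rests on 3 vehicle counts.

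Levels can be compared between genes per kilobase of gene length, as CPM per kilobase. In WT LPS macrophages Il6 was highest, at 206.5 ± 34.4 (SD, n = 3). It was followed by Il15 (45.5 ± 3.81), Csf1 (31.22 ± 4.498), Csf3 (28.7 ± 3.15), Il10 (16.5 ± 2.29), Il15ra (15.5 ± 1.07), Osm (7.49 ± 1.11), Lif (7.27 ± 0.84) and Csf2 (0.726 ± 0.361). The neighbours Csf1 and Csf3, Il10 and Il15ra, and Osm and Lif did not differ beyond their SDs. With vehicle the order was led by Csf1 (17.0 CPM per kilobase), Osm (9.13) and Il15 (4.26), while Il6 (0.136), Csf3 (0.0211) and Csf2 (0.0153) were lowest.

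**Figure D3:**
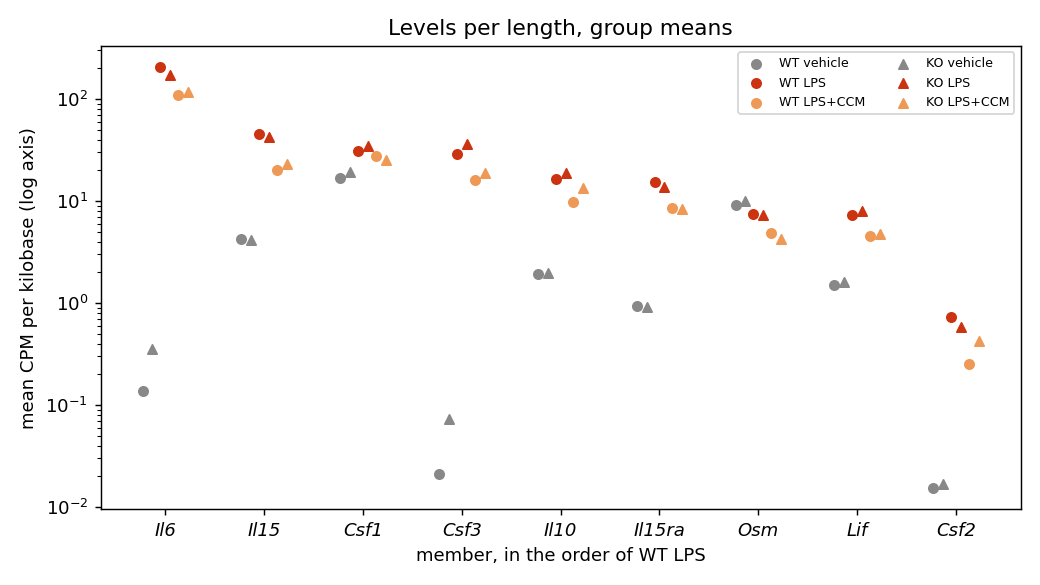
Group mean of each member as CPM per kilobase of gene length (log axis), in the order of WT LPS macrophages, for vehicle, LPS and LPS+CCM in WT (circles) and KO (triangles). Il6 leads with LPS, Csf1 leads with vehicle, and Csf2 is lowest in each of the 6 groups shown.

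The effect of CCM on LPS-treated macrophages was examined next. In WT, 7 of the 8 members tested fell with CCM and none rose, where 11.9% of the 13579 genes tested were called and 7.78% were called lower. The members' median log2 fold change was -0.79, against 0.01 over all genes tested. Il6, Lif, Osm, Il10, Il15, Il15ra, Csf2 and Csf3 each had all 3 LPS+CCM libraries below all 3 LPS libraries, an order that 15.3% of the tested genes showed. Csf1 was the exception. With total-count scaling 7 members were again called lower, although the calls over all genes turned from 564 higher and 1057 lower to 1539 and 733. With all 36 libraries in 1 fit, 17 of 15720 genes were called, of which Il15 was the 1 member. In KO, 1 of 8 members was called, Il15, where 0.112% of 13386 genes were called and 0.105% were called lower, and the median was -0.75 against 0.00. Dendritic cell markers (3 of 6 with a mean of at least 1 CPM, nearly all of the sum from Itgax, which macrophages also express) moved with the treatments. They summed to 773 to 882 CPM with vehicle, 1416 to 1486 with LPS and 1289 to 1334 with LPS+CCM in WT, and to 1150 to 1641 with LPS and 716 to 1264 with LPS+CCM in KO, while Siglech was at 0 in 6 libraries, Xcr1 in 2 and Flt3 in 1. Their part in the members' levels was not tested. Without KO replicate 2 no member was called, as was no gene of 13440 (580 at an unadjusted p under 0.05), and without KO replicate 6 4 members were called among 170 of 13429 genes.

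**Figure D4:**
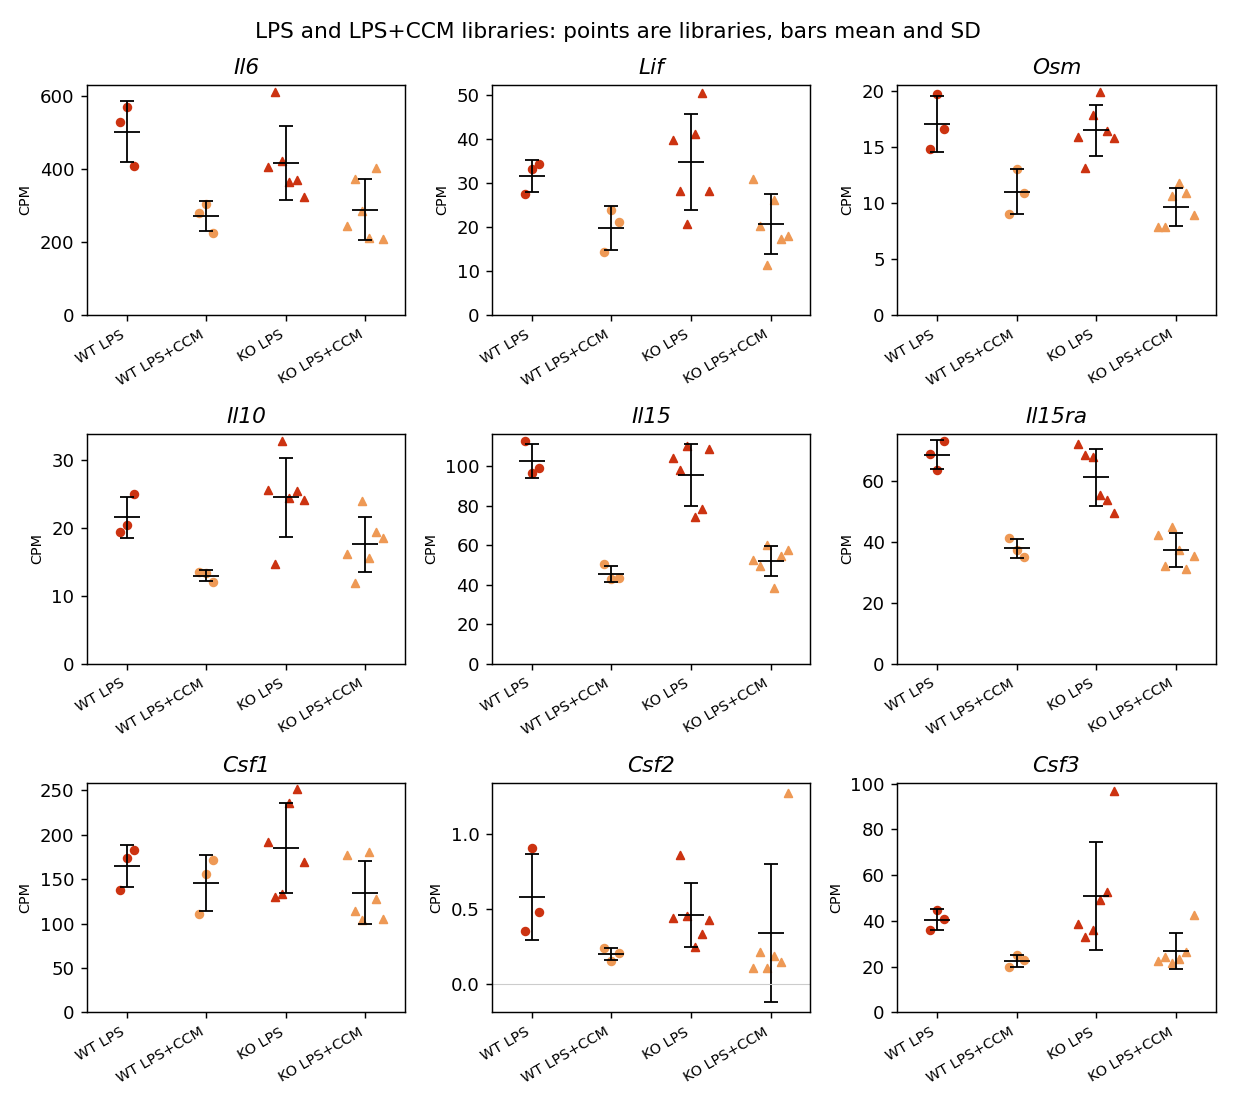
CPM of each member in LPS and LPS+CCM libraries of WT (circles) and KO (triangles). Bars give the mean and SD (n = 3 WT, n = 6 KO), and the scales differ between panels. WT LPS+CCM libraries lie below WT LPS libraries for each member but Csf1, and 1 KO LPS+CCM library of Csf2 stands at 1.28 CPM.

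Il15 and Il15ra gave the smallest adjusted p-values. With LPS, Il15 had 112.8, 96.7 and 99.3 CPM in WT and with LPS+CCM 50.3, 42.8 and 43.4, which is 43.7 to 44.6% of the LPS library of the same number. Its log2 fold change was -1.18 (SE 0.08, edgeR adjusted p = 2.9e-05). In KO the LPS libraries had 74.6 to 110.5 CPM (median 101.2) and the LPS+CCM libraries 38.3 to 60.2 (median 53.4), with no overlap and a log2 fold change of -0.90 (SE 0.15, adjusted p = 0.0407). This KO call was lost without any 1 of replicates 1 to 5 (adjusted p = 0.0969 to 0.369, and 6.7e-06 to 0.369 over 12 alternatives).

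Il15ra had 69.0, 63.8 and 73.4 CPM with LPS and 41.3, 37.5 and 35.2 with LPS+CCM in WT (log2 fold change -0.86, SE 0.08, edgeR adjusted p = 8.9e-05). In KO it had 49.7 to 72.3 CPM (median 61.7) and 31.2 to 45.1 (median 36.4). These KO groups did not overlap either, and the log2 fold change was -0.74 (SE 0.14, adjusted p = 0.0662). Osm was the third member with no overlap in KO, at 13.1 to 19.9 CPM with LPS and 7.79 to 11.8 with LPS+CCM (-0.79, SE 0.15, adjusted p = 0.0662). Such an order was seen in 0.725% of the tested genes. DESeq2 called both Il15ra (adjusted p = 0.000134) and Osm (adjusted p = 0.000107) in KO, beside Il15, among 200 genes of 12861. Over 12 alternatives the KO adjusted p ran from 0.000134 to 0.528 for Il15ra and from 0.000107 to 0.369 for Osm. In WT, Osm had 14.8, 19.7 and 16.5 CPM with LPS and 8.99, 13.03 and 10.88 with LPS+CCM (-0.63, SE 0.15, adjusted p = 0.0191). That call was lost without WT LPS replicate 2 (adjusted p = 0.0935) or WT LPS+CCM replicate 3 (adjusted p = 0.0585), and its adjusted p over 12 alternatives was 2.7e-06 to 0.647.

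Il6 had 529, 568 and 408 CPM with LPS and 279.7, 303.6 and 223.6 with LPS+CCM in WT. The 3 same-numbered pairs gave nearly equal shares, 52.9 to 54.9%, and the log2 fold change was -0.90 (SE 0.13, edgeR adjusted p = 0.0014). In KO the LPS+CCM libraries (208.5 to 403 CPM, median 264) overlapped the LPS libraries, with a log2 fold change of -0.55 (SE 0.20, adjusted p = 0.43). Il6 was lower with CCM in 5 of 6 KO pairs, the exception being replicate 5 (403 against 368 CPM). Same-numbered KO libraries did not all deviate together in this comparison (correlations of -0.102 to 0.813). The KO pair counts for CCM under LPS, here and below, are therefore descriptions, and no share over all genes was counted for them.

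Il10 had 19.3, 20.4 and 25.0 CPM with LPS and 13.5, 13.34 and 11.98 with LPS+CCM in WT, a log2 fold change of -0.74 (SE 0.11, edgeR adjusted p = 0.0017). Thus both the inflammatory Il6 and the anti-inflammatory Il10 fell. In KO, Il10 was lower in 6 of 6 pairs, at 63.1 to 81.2% of the LPS library, but its log2 fold change of -0.50 (SE 0.20) did not pass the test (adjusted p = 0.51).

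Csf3 had 35.97, 44.85 and 40.9 CPM with LPS and 19.7, 25.1 and 22.9 with LPS+CCM in WT, 54.6 to 56.0% of the same-numbered library (log2 fold change -0.85, SE 0.10, edgeR adjusted p = 0.00045). In KO it had 33.1 to 96.6 CPM (median 43.8) and 21.5 to 42.8 (median 23.9), lower in 6 of 6 pairs (-0.95, SE 0.27, adjusted p = 0.25). KO replicate 6 was the highest of the KO libraries under both treatments, 96.6 and 42.8 CPM, and is also the replicate with the neutrophil marker sums given above. Its TMM factors were 0.749 with LPS and 0.750 with LPS+CCM, against 0.821 or more in the other KO libraries of these treatments. A lower factor raises the CPM. The sums of B cell, T or NK cell and erythroid markers were also highest in a library of that replicate, at 12.4, 9.80 and 11.6 CPM. Over the 36 libraries, the deviations of the neutrophil sum from the group means had r = 0.50 with those of Csf3, the highest of the members, against -0.48 (Il15ra) to 0.35 (Il10) for the others. The part of the neutrophil or other markers, or of the scaling, in the Csf3 level was not tested. Without KO replicate 6, Csf3 was called (-0.83, adjusted p = 0.017), as were Il15, Il15ra and Osm, and over 12 alternatives its adjusted p was 0.00169 to 0.687.

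Lif had 27.5, 33.2 and 34.3 CPM with LPS and 14.2, 23.8 and 21.1 with LPS+CCM in WT (log2 fold change -0.68, SE 0.16, edgeR adjusted p = 0.018), a call that was lost without WT LPS replicate 2 (adjusted p = 0.0708) or 3 (adjusted p = 0.0568) and ran from 7.45e-13 to 1 over 12 alternatives. In KO it was lower in 6 of 6 pairs (-0.77, SE 0.25, adjusted p = 0.35). Csf1 had 137.8, 174.3 and 182.5 CPM with LPS and 110.3, 156.0 and 171.4 with LPS+CCM in WT, groups that overlapped (-0.18, SE 0.15, adjusted p = 0.51). Each of the 3 same-numbered pairs was lower with CCM, at 79.99 to 93.95%. Same-numbered WT libraries deviated together here, and a fit blocked by replicate number, which called 23.7% of genes, called Csf1 (adjusted p = 0.00608) and thereby 8 of 8 members as lower. Over 12 alternatives the adjusted p of Csf1 was 0.00608 to 1. In KO, Csf1 was lower in 6 of 6 pairs with a log2 fold change of -0.48 (SE 0.20, adjusted p = 0.56).

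Csf2 had 6, 21 and 12 counts with LPS and 4, 3 and 4 with LPS+CCM in WT, a ratio of 0.333 (95% counting interval 0.154 to 0.663, two-sided exact permutation p = 0.1, the smallest possible). In KO it had 8, 15, 7, 4, 6 and 5 counts with LPS and 2, 4, 2, 5, 3 and 22 with LPS+CCM, a ratio of 0.684 (0.432 to 1.08, exact permutation p = 0.580). The 22 counts were those of replicate 6. Without that replicate, left out here after its counts were seen and so given no test, the ratio was 0.333 (0.174 to 0.608).

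Without LPS, CCM gave no call among the 6 members tested in either genotype, where edgeR called 0.0570% of 14024 genes in WT and 0% of 13799 in KO. In these comparisons 1404 genes in WT and 333 in KO had an unadjusted p under 0.05, and DESeq2 called 241 and 42 genes, none of them a member. The fit blocked by replicate number called 429 genes in KO, again none of them a member. Il10 was nearest to a call. It had 2.90, 2.47 and 2.18 CPM with vehicle and 1.61, 1.76 and 1.19 with CCM in WT (log2 fold change -0.74, SE 0.24, edgeR adjusted p = 0.34). In KO it had 2.31 to 3.06 CPM with vehicle (median 2.58) and 1.02 to 2.42 with CCM (median 1.51), lower in 6 of 6 pairs (-0.77, SE 0.20, adjusted p = 1). The unadjusted edgeR p of Il10 in KO was 0.0024. Same-numbered KO libraries deviated together here. Over 12 alternatives, the replicate block among them, the lowest adjusted p of Il10 in KO was 0.0578. Il6, Csf2 and Csf3 had too few counts for this test. Il6 had 28 counts over the vehicle and 20 over the CCM libraries in WT, a ratio of 0.879 (95% counting interval 0.470 to 1.62, exact permutation p = 0.7). In KO there were 116 and 40 counts, a ratio of 0.352 (0.239 to 0.508, exact permutation p = 0.262), with replicate 2 the highest vehicle library. Csf3 had 3 and 1 counts in WT, a ratio of 0.410 (0.00782 to 5.11), and 14 and 3 in KO, a ratio of 0.219 (0.0403 to 0.783, exact permutation p = 0.0758). Csf2 had 1 and 2 counts in WT and 1 and 1 in KO. These intervals cover counting error only. Il15 and Il15ra were 92.3 and 92.4% of their vehicle means in WT and 92.6 and 78.8% in KO, within the spread of the replicates.

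Whether the effect of CCM differed with and without LPS was tested as an interaction. In WT, Il15 (-1.07, SE 0.13, edgeR adjusted p = 0.0027) and Il15ra (-0.74, SE 0.14, adjusted p = 0.016) fell more with CCM under LPS than without LPS, where 2.09% of 14747 genes were called. Total-count scaling kept both calls, with all genes at 230 higher and 117 lower in place of 69 and 239. With all 36 libraries in 1 fit neither was called, and no gene of 15720 was (323 at an unadjusted p under 0.05), while without WT CCM replicate 2 Il15ra missed the threshold (adjusted p = 0.0504). The other members tested did not pass, among them Osm (-0.77, SE 0.23, edgeR adjusted p = 0.11, but 0.0137 with DESeq2) and Il10, whose term was -0.01 (SE 0.31). In KO 0 of 8 members were called, where 0.00685% of 14588 genes were, and the terms of Il15 and Osm were -0.77 (SE 0.20) and -0.82 (SE 0.26).

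No member was called between the genotypes. With vehicle 7 members and with LPS 8 members were tested, 8 for the interaction of genotype with LPS and 9 for that of genotype with CCM under LPS, and 0% of all genes were called by edgeR in each of these 4 comparisons. There were 118, 105, 112 and 72 genes with an unadjusted p under 0.05, and DESeq2 called 1, 2, 0 and 0 genes. With LPS the KO level as a share of the WT mean ran from 79.4% for Csf2 to 125.8% for Csf3. The difference between KO and WT in the log2 effect of CCM under LPS was 0.37 (SE 0.32) for Il6, 0.30 (SE 0.22) for Il15, 0.25 (SE 0.30) for Il10 and 0.13 (SE 0.20) for Il15ra. For Lif, Osm, Csf1 and Csf3 it was -0.07 (SE 0.40), -0.15 (SE 0.24), -0.29 (SE 0.33) and -0.09 (SE 0.41), and for Csf2 1.05 (SE 0.99). None of these 9 differences passed the test (edgeR adjusted p = 1 for each).

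How the members varied between libraries of the same group was compared over the 36 libraries, as log2 CPM less the group mean. Csf1 and Lif deviated together (Pearson r = 0.915), while Il6 and Il15ra had r = 0.703, Il15 and Il15ra 0.557 and Lif and Osm 0.00. These libraries share groups and, in part, replicate numbers, so the values are descriptions. The summed stromal markers deviated with Csf1 (r = 0.858) and Lif (r = 0.827), against -0.35 to 0.13 for the other members. WT replicate 1 had the lowest Csf1 of the WT libraries under each of the 4 treatments. Its stromal sum was the lowest in WT with vehicle, CCM and LPS, but the highest with LPS+CCM (709.5 CPM against 613.6 and 643). The part of stromal cells in the Csf1 and Lif levels was not tested.

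**Figure D5:**
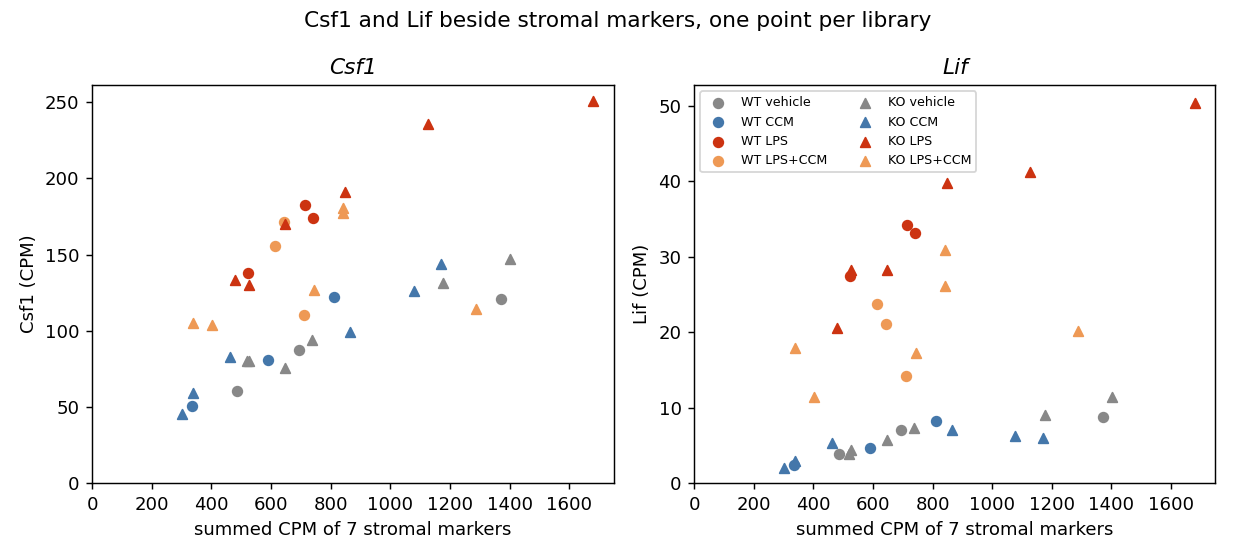
Csf1 (left) and Lif (right), in CPM, against the summed CPM of 7 stromal markers, 1 point per library (circles WT, triangles KO, colours treatments). Libraries with more stromal marker RNA had more Csf1 and Lif within most treatments, and LPS libraries lie above vehicle libraries at like sums.

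Over all 36 libraries, the genes with the most similar pattern to each member were found by Pearson correlation of log2 CPM, among 11177 other genes (11178 for Csf2). These r include the differences between treatments. Among the members, Il6 and Il10 had r = 0.964 over all libraries but -0.106 as deviations from group means, and Il6 and Il15ra 0.983 and 0.703. For Il6 these were Il1a (r = 0.996), Gbp2 (0.996) and Cmpk2 (0.995), and for Csf3 Tnf (0.994), AW112010 (0.993) and Igtp (0.993). Il15 was most like March5 (0.995), Sp140 (0.990) and Ccrl2 (0.989), and Il15ra like Ifih1 (0.994), Tor1aip2 (0.993) and Tor1aip1 (0.993). For Il10 the 3 were Rab5c (0.982), Phf11b (0.981) and Ifit3b (0.981), and for Csf2 Rab3ip (0.942), Plaur (0.923) and Rgs14 (0.921). The 2 members that moved with the stromal markers had Col4a2 (0.941), Fstl1 (0.929) and Osmr (0.925) for Csf1, and Antxr1 (0.948), Ccnd2 (0.948) and Col5a3 (0.945) for Lif. Osm had the weakest matches, Rftn1 (0.852), Rgs1 (0.826) and Cytip (0.814).

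The receptors, relatives and signalling partners of the members were counted from 4 lists. Their counts stand beside calls among all genes of 63.0% with LPS and 11.9% with CCM under LPS in WT. Of 13 receptor genes, 7 rose and 3 fell with LPS in WT. With CCM under LPS, 2 rose, Il6ra (log2 fold change 0.49, SE 0.07, edgeR adjusted p = 0.0015), the IL-6 receptor chain, and Csf1r (0.27, SE 0.04, adjusted p = 0.0022), the receptor of M-CSF. The common gamma chain Il2rg, which serves IL-15, fell (-0.21, SE 0.06, adjusted p = 0.037). The median of the list was -0.04. Il6ra and Csf1r had fallen with LPS by 1.29 and 0.30, and Il2rg had risen by 1.70.

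Of 17 other ligand genes of the same families, 9 were tested in WT, and 6 rose and 1 fell with LPS. With CCM under LPS 3 fell and none rose, with a median of -0.56. Il27, a subunit of the gp130 cytokine IL-27, went from 292 ± 38.5 to 117 ± 22.7 CPM (log2 fold change -1.33, SE 0.13, edgeR adjusted p = 0.00013), and its partner subunit Ebi3 from 78.7 ± 0.44 to 62.7 ± 0.25 (-0.33, SE 0.05, adjusted p = 0.0016). Il19, of the IL-10 family, was 11.4 ± 2.31 and 7.70 ± 0.62 CPM (-0.57, SE 0.16, adjusted p = 0.039). Il27 overlaps Apobr and Ebi3 overlaps Gm16712, both on the opposite strand, so parts of their counts are uncertain.

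Of 14 JAK, STAT and SOCS genes, 11 rose and 1 fell with LPS in WT. CCM under LPS lowered 5 and raised none, with a median of -0.14. Those with the largest change were Cish (-1.03, SE 0.19, edgeR adjusted p = 0.0065), a SOCS-type inhibitor, and Tyk2 (-0.32, SE 0.07, adjusted p = 0.012), Stat3 (-0.31, SE 0.05, adjusted p = 0.0020) and Stat5a (-0.24, SE 0.06, adjusted p = 0.026). Stat3 and Stat5a overlap each other. Of 16 regulators of transcription or mRNA decay, 13 rose and 1 fell with LPS, and CCM under LPS lowered 5 and raised none, with a median of -0.13. Arid5a, an RNA-binding protein that stabilizes Il6 mRNA, had the largest change (-0.83, SE 0.08, adjusted p = 0.00018). It was followed by the NF-κB family genes Rel (-0.40, SE 0.07, adjusted p = 0.0052), Nfkbiz (-0.36, SE 0.06, adjusted p = 0.0020) and Nfkb1 (-0.29, SE 0.05, adjusted p = 0.0055). The median over all genes tested was 0.01 in this comparison. In KO none of the genes of the 4 lists was called with CCM under LPS, where 0.112% of all genes were, so a count of 0 is near the background. With LPS, where 47.1% of all genes were called in KO, the KO counts, in the order receptors, ligands, signalling genes and regulators, were 7, 5, 11 and 11 higher and 2, 1, 1 and 1 lower. Il6ra, Csf1r, Il2rg, Cish, Tyk2 and Nfkb1 also overlap other annotated genes.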

How the data were processed

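RNA of 36 BMDM libraries was enriched with poly(T) beads, reverse transcribed and sequenced. Per the labels, the authors used fastp, HISAT2 2.0.5 and featureCounts 1.5.0-p3 on mm10. The deposited values are raw counts per gene, as whole numbers. The strand setting is not given in the sources used here. All count columns were used (0 left out).

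The tests were run in R 4.3.3 (edgeR 4.0.16). For each comparison the libraries of the groups compared were filtered (filterByExpr), scaled (TMM) and fitted without a block (estimateDisp, glmQLFit), and glmQLFTest was applied, two-sided, Benjamini-Hochberg adjusted at 0.05 over all genes tested. The SE is the log2 fold change divided by the square root of F. CPM use TMM factors from all 36 libraries (15720 genes kept). Log2 values use a prior count of 2, and marker sums a pseudocount of 0.5 CPM. Single values were tested by exact permutation, and count ratios have 95% intervals. The fits were tested on simulated data.

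The members and lists were chosen with earlier results of these data known. All 9 members are named, up to 4 called genes per list with the largest change for CCM under LPS in WT, and the 3 most similar genes per member with an average log2 CPM of at least 1. DESeq2 1.42.0, RLE size factors, total counts, no filter, a replicate block, all libraries in 1 fit and left-out replicates were alternatives. Same-numbered libraries were taken as paired where each correlation of their deviations from group means was over 0.1, since the sources do not say that a number marks 1 animal. It was 0.3 to 0.83 for LPS in KO, 0.337 to 0.839 for CCM in KO and 0.151 to 0.36 for CCM under LPS in WT. p-values measure the spread between these samples, whose separate animals the labels do not name. Between libraries of a group, chi-square over its degrees of freedom was 4.08 or more, so none was a second sequencing run of the same library. Whether libraries came from the same culture or animal cannot be told by this check.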

Additional observations from a re-analysis of the deposited data

Results flagged for a closer look

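In KO groups of 6 libraries, the highest or lowest library was checked for its distance from the others (36 groups of a member and a treatment), a check that chance alone flags in about 5% of groups. In Il6, KO replicate 2 was high with vehicle (3.071 CPM, next 0.6065) and with LPS (609 CPM, next 421.9). Csf3 was high in KO replicate 6 with LPS (96.62 CPM, next 52.72) and with LPS+CCM (42.75 CPM, next 26.24). Il15ra was low in KO replicate 6 with CCM (0.8721 CPM, next 3.113).

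Csf2 was flagged 4 times. Replicate 6 was high with LPS+CCM (1.276 CPM, next 0.2119) and replicate 2 with LPS (0.8632 CPM, next 0.4536). With vehicle replicate 6 (0.0804 CPM) and with CCM replicate 5 (0.0356 CPM) held the 1 count of their group, which is at the limit of the depth. A group with 1 count is flagged whichever library holds it.

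In WT the effect of CCM differed between LPS-treated and untreated macrophages for Il15 (-1.066 on the log2 scale) and Il15ra (-0.7361), by the interaction test given above.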

How the results depend on the processing

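Of the counts of called members, those for CCM under LPS were the most dependent on the fit. In WT 1 member was called with all 36 libraries in 1 fit, which also tested Csf2. In KO the count was 3 with DESeq2 (200 of 12861 genes called), 2 with all 36 libraries in 1 fit (285 of 15720) and 0 to 4 with a replicate left out (0 to 170 genes). With the replicate number as a block, which those KO libraries do not share as pairs by the check (correlations of -0.102 to 0.813), it was 8 (777 of 13386 genes). For the LPS by CCM interaction, 0 were called in WT with all 36 libraries in 1 fit and 1 to 2 with a library left out (1 without WT CCM replicate 2), and in KO 1 (Osm) with the replicate block. The block changed no other count of members by over 1.5 times. The cause of these changes was not tested.

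Differences that turned in sign were not called in any of these fits. For the WT interaction, Il10 was 0.091 with total counts and 0.011 without the filter, and Csf1 0.013 with total counts, which moved the median of all genes to 0.11. Between genotypes with vehicle, Il15 was 0.0098 with DESeq2 and 0.0012 with RLE size factors, and Il10 -0.0039 with total counts. For genotype by LPS, Csf1 was 0.0012 with total counts and 0.013 without the filter. Leaving out a replicate gave ranges across 0. With CCM alone they were -0.025 to 0.090 (Osm, KO), -0.032 to 0.25 (Osm, WT) and -0.47 to 0.19 (Csf1, WT). Between genotypes with LPS they were -0.00076 to 0.25 (Lif) and -0.14 to 0.071 (Osm). With vehicle they were -0.021 to 0.48 (Csf1), -0.027 to 0.18 (Il10), -0.084 to 0.067 (Il15), -0.12 to 0.12 (Il15ra), -0.17 to 0.38 (Lif) and -0.014 to 0.27 (Osm). For LPS by CCM they were -0.24 to 1.504 (Il6, KO), -0.37 to 0.28 (Csf1, WT), -2.68 to 2.06 (Csf3, WT), -0.16 to 0.11 (Il10, WT) and -0.64 to 0.24 (Lif, WT). For genotype by CCM they were -0.16 to 0.026 (Csf3) and -0.19 to 0.11 (Lif). For genotype by LPS they were -0.19 to 0.10 (Csf1), -0.050 to 0.36 (Il10), -0.19 to 0.032 (Il15), -0.15 to 0.23 (Lif) and -0.33 to 0.10 (Osm).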
